A study of Homo sapiens with 2 samples.

Results

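The ERBB receptors, the EGF-like ligands that bind them and the feedback inhibitor ERRFI1 were examined in HSC-3, a cell line from a human squamous carcinoma of the tongue, with and without FIN56, a small molecule that induces ferroptosis (iron-dependent cell death by lipid peroxidation). The genes were found by symbol in the deposited tables: EGFR, ERBB2, ERBB3, AREG, EREG, HBEGF, TGFA, EPGN, BTC and ERRFI1. All 10 were present among 60616 genes, each with a single row. The DMSO group is 1 library of HSC-3 cells given 0.1% DMSO, the vehicle, and the FIN56 group is 1 library of the same line given 1 µM FIN56 for 48 h. Both came from cells of a single line grown in medium with serum, no other allele or agent is named for either, and the time in DMSO is not given separately. The comparison addresses which transcripts differ in carcinoma cells under sublethal ferroptotic stress.

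EGFR, ERBB2 and ERBB3 are receptors of the plasma membrane that pair when a ligand binds and then signal through RAS and ERK and through PI3K and AKT. Their ligands are made as membrane-bound precursors and are released by sheddases such as ADAM17. ERRFI1, also called MIG6, is induced by receptor signaling and binds and inhibits the EGFR kinase. EGFR is abundant in most oral squamous carcinomas and is a drug target in this disease.

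Expected counts, which are RSEM estimates of the reads of each gene, summed to 70184517 with DMSO and 73062209 with FIN56. Mitochondrial genes held 4.77% of the counts with DMSO and 5.75% with FIN56. The fold change is the deposited FPKM with FIN56 divided by that with DMSO, and 1.5 and 1/1.5 were taken as thresholds, after the criterion of the study. A second fold change, the count ratio, was computed from expected counts scaled by the library totals, with an exact Clopper-Pearson interval at 95%. With 1 library per condition there is no replicate check, no difference between the conditions was tested and each interval covers only the error of counting. The reads carry no molecular identifiers and so are not independent molecules. In bulk RNA, fewer cells that express a gene and less of its RNA per cell cannot be told apart.

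EGFR was the most abundant receptor transcript and was nearly level between the libraries. EGFR (ENSG00000146648, chromosome 7, 55019017 to 55211628, GRCh38) had 122760 expected counts with DMSO and 121473 with FIN56, or 0.175% and 0.166% of each library. Its FPKM was 188.23 and 178.37, a fold change of 0.948. The count ratio was 0.951 with an interval of 0.943 to 0.958, so the counts place EGFR slightly lower with FIN56, by far less than the threshold. ERBB2 (chromosome 17, 39687914 to 39730426), the partner that needs no ligand of its own, had 5275 and 4859 expected counts and FPKM values of 21.35 and 20.14. Its fold change was 0.943 and its count ratio 0.885 (0.851 to 0.920). The expected counts of EGFR and ERBB2 were not whole numbers, as arises when a read fits several genes, whereas those of the other 8 members were whole. ERBB4 was at 0 counts in both libraries. A count of 0 was taken to allow up to 3 counts, a one-sided limit that is lower than the upper end of a two-sided interval, or 0.0427 counts per 1e6 (CPM) with DMSO and 0.0411 CPM with FIN56.

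ERBB3, which has an impaired kinase and signals by pairing with ERBB2 or EGFR, gave opposite answers by the 2 measures. ERBB3 (ENSG00000065361, chromosome 12, 56076799 to 56103505) had 4471 expected counts with DMSO and 3157 with FIN56, a count ratio of 0.678 (0.648 to 0.710). Its FPKM nevertheless went the other way, from 15.90 under DMSO to 19.70 under FIN56, which gives a fold change of 1.24. The measures differ by the effective length, the length that RSEM assigns to a gene from its estimated mix of transcripts, which was recovered here from the count, the FPKM and the library total. For ERBB3 this implied length was 4007 bases with DMSO and 2193 bases with FIN56, a ratio of 0.547. Of the 8541 genes counted 1000 times or more in each library, no other gene had so low a ratio, and the 5th to 95th percentiles spanned 0.877 to 1.08. The GENCODE annotation, release 44, lists 33 ERBB3 transcripts of 237 to 6264 bases, so a shift in the estimated transcript mix can move the length over a wide range. The study names a different release for its tumor samples, so RSEM may have used another set of transcripts. Which transcripts carried the shift was not tested, since the tables hold gene totals only. Of the 12659 genes counted 100 times or more in each library, 315 (2.49%) had an FPKM fold change on the other side of 1 from their counting interval, and ERBB3 was among them. No direction is given for ERBB3.

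**Figure D1:**
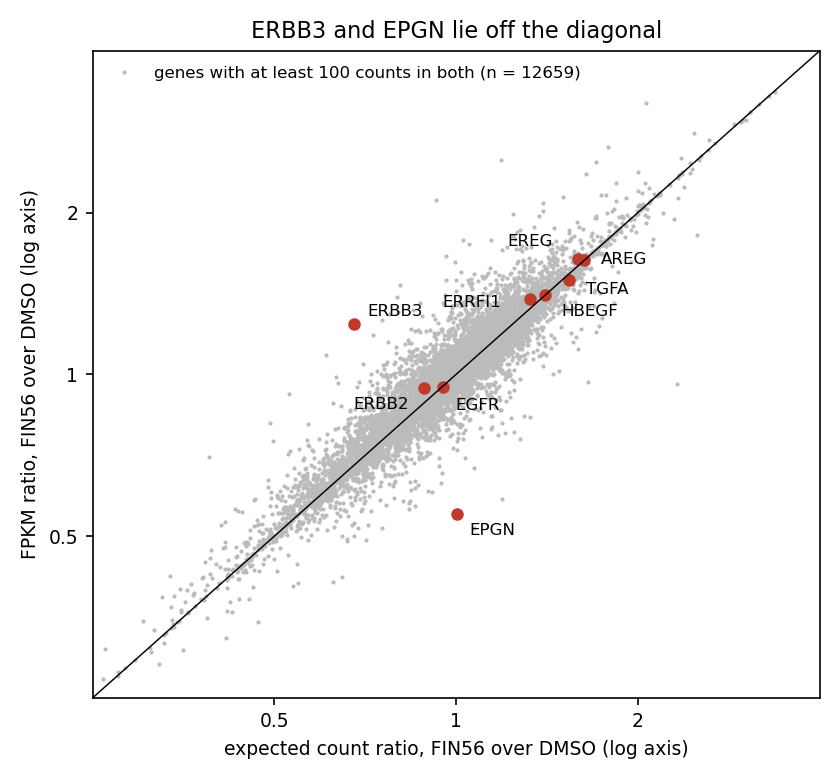
FPKM ratio against expected count ratio (FIN56 over DMSO, both log axes) for the 12659 genes counted 100 times or more in each library, of which 8 lie outside the axes; red points are members, and BTC has too few counts to be included. ERBB3 (count ratio 0.678, FPKM ratio 1.24) and EPGN (1.00 and 0.549) lie away from the diagonal, where both ratios are equal, and the other labelled genes lie close to it.

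The 4 abundant EGFR ligands were all higher with FIN56. AREG, EREG, TGFA and HBEGF had FPKM fold changes of 1.40 to 1.64, with count ratios of 1.40 to 1.63 whose intervals lay above 1. AREG (ENSG00000109321, chromosome 4, 74445136 to 74455005) encodes amphiregulin, a ligand of EGFR alone that is known as an autocrine growth factor of keratinocytes. It had 22734 expected counts with DMSO and 38516 with FIN56, and its FPKM was 287.06 and 467.86, a fold change of 1.63. The count ratio was also 1.63 (1.60 to 1.65). By TPM, AREG ranked 308 among all genes with DMSO and 203 with FIN56.

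EREG (chromosome 4, 74365145 to 74388749) encodes epiregulin, which binds EGFR and ERBB4. Its expected counts were 3598 with DMSO and 5953 with FIN56, with an FPKM of 11.91 and 19.56, a fold change of 1.64 and a count ratio of 1.59 (1.52 to 1.66). AREG and EREG kept nearly the same proportion in both libraries, with 24.1 AREG transcripts per EREG transcript on the TPM scale with DMSO and 23.9 with FIN56.

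TGFA (chromosome 2, 70447284 to 70554193), which encodes transforming growth factor alpha, had 10486 and 16792 expected counts. Its FPKM was 42.62 under DMSO and 63.94 under FIN56, a fold change of 1.5002 that only just reached the threshold, and its count ratio was 1.54 (1.501 to 1.58). HBEGF (chromosome 5, 140332843 to 140346603) encodes a heparin-binding ligand of EGFR and ERBB4. It had 4358 and 6364 expected counts and FPKM values of 28.14 and 39.47, which gave 1.40 by both measures (1.35 to 1.46) and left it below the threshold.

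The remaining ligands were weakly expressed, and no counting interval of theirs lay above 1. EPGN (chromosome 4, 74308470 to 74316789), which encodes epigen, had 137 expected counts with DMSO and 143 with FIN56, a count ratio of 1.00 (0.788 to 1.28). Its FPKM of 1.75 and 0.96 gave a fold change of 0.549, past the threshold of 1/1.5, with an implied length of 1115 bases with DMSO and 2039 with FIN56. The low FPKM of EPGN with FIN56 therefore came with a nearly equal number of reads assigned to a longer mix of transcripts. BTC, which encodes betacellulin, had 43 and 44 expected counts and an FPKM of 0.24 in both libraries. EGF, the founding ligand, had 4 counts with DMSO and 3 with FIN56, too few to place (count ratio 0.720, interval 0.106 to 4.26).

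**Figure D2:**
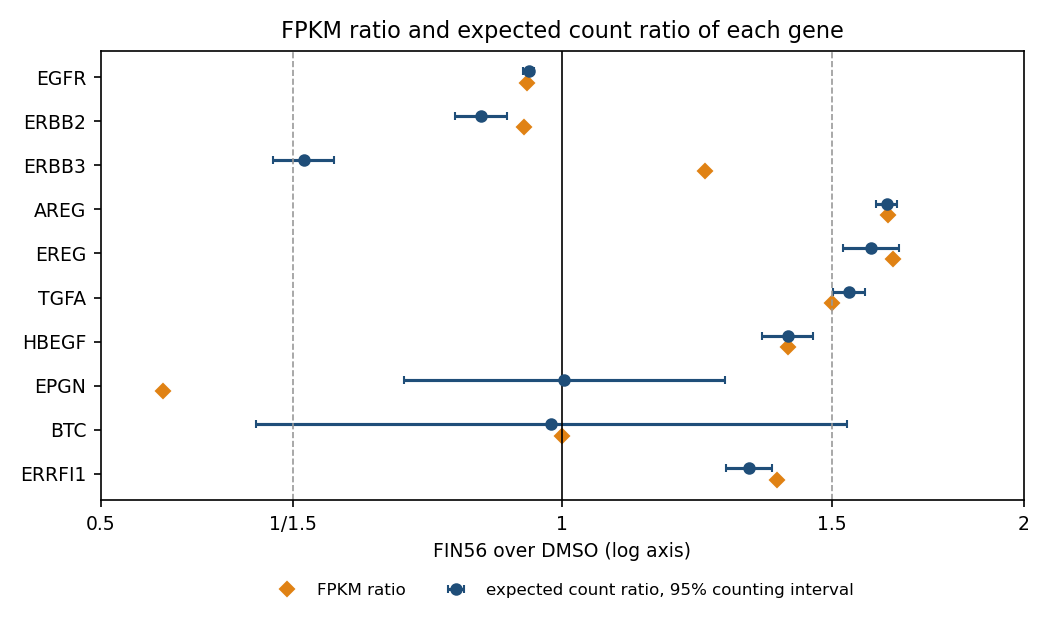
FPKM ratio (diamonds) and expected count ratio (circles, with 95% counting intervals) of the 10 members, FIN56 over DMSO on a log axis, with dashed lines at 1.5 and 1/1.5. AREG, EREG, TGFA, HBEGF and ERRFI1 lie above 1 by both measures, EGFR and ERBB2 slightly below, and ERBB3 and EPGN are placed differently by the 2 measures.

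Summed on the TPM scale, which corrects for length, the EGFR ligands amounted to 556 TPM with DMSO and 905 TPM with FIN56, a ratio of 1.63. AREG made up 77.2% of the ligand sum with DMSO and 79.0% with FIN56, followed by TGFA with 11.5% and 10.8%, HBEGF with 7.57% and 6.67% and EREG with 3.21% and 3.304%. Without AREG the ligand sum had a ratio of 1.4993. The receptors summed to 337 TPM and 334 TPM, a ratio of 0.989, of which EGFR held 83.5% and 81.7%. The direction of this share turned with the measure used for ERBB3, since by expected counts EGFR held 92.6% and 93.8% of the receptor sum. Expected counts are not corrected for length, so the level of these shares cannot be set beside the TPM shares. With DMSO the implied length was 9292 bases for EGFR, 3520 for ERBB2 and 4007 for ERBB3. On the TPM scale, ligand transcripts amounted to 1.98 per EGFR transcript with DMSO and 3.32 with FIN56. These are transcript levels and do not measure precursor protein, shedding or receptor phosphorylation.

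**Figure D3:**
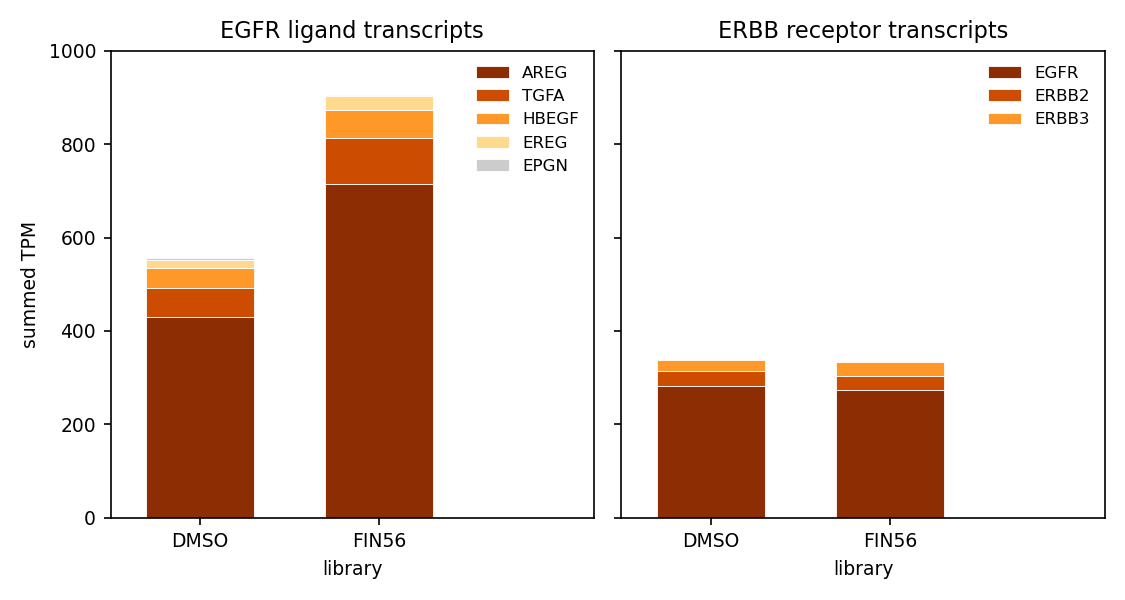
Summed TPM of the EGFR ligands (left) and the ERBB receptors (right) in the DMSO and the FIN56 library, with each gene as a segment; genes below 1 TPM in both libraries are not drawn. The ligand bar is 556 TPM with DMSO and 905 TPM with FIN56, whereas the receptor bars are 337 and 334 TPM.

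ERRFI1 (chromosome 1, 8004404 to 8026309), the feedback inhibitor, was higher with FIN56. It had 5608 expected counts with DMSO and 7722 with FIN56, and its FPKM was 27.92 and 38.54, a fold change of 1.38. The count ratio was 1.32 (1.28 to 1.37), which lies below the threshold.

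Of the neuregulins, the ligands of ERBB3 and ERBB4, only NRG1 was abundant. It had 9235 and 12238 expected counts and FPKM values of 67.39 and 84.20, a fold change of 1.25 and a count ratio of 1.27 (1.24 to 1.31). NRG2 had 291 and 422 expected counts, an FPKM fold change of 1.17 and a count ratio of 1.39 (1.20 to 1.62). NRG4 had 32 and 21 counts, an interval that included 1 (0.345 to 1.13) and an FPKM fold change of 0.579, and NRG3 had none in either library. Of the 6 family genes outside the members (ERBB4, EGF and the neuregulins), 4 were above 0 FPKM in both libraries and so had a ratio. Of these 4, 1 was at 1.5 or more and 1 at 1/1.5 or less by FPKM, both on fewer than 100 counts. Over all genes above 0 FPKM in both libraries the shares were 14.7% and 17.3%.

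The order of the members by TPM was the same in both libraries. AREG stood first with 429 TPM with DMSO and 715 TPM with FIN56, then EGFR with 282 and 273, TGFA with 63.7 and 97.7, HBEGF with 42.1 and 60.3 and ERRFI1 with 41.8 and 58.9. ERBB2 followed with 31.9 and 30.8 TPM, ERBB3 with 23.8 and 30.1, EREG with 17.8 and 29.9, EPGN with 2.62 and 1.46 and BTC with 0.36 in both. HBEGF and ERRFI1 had overlapping counting intervals in each library. In the FIN56 library those of ERBB2 and ERBB3 overlapped too, as did those of ERBB3 and EREG, so their order there rests on differences within counting error. The place of ERBB3 also rests on its effective length, since its TPM with DMSO times its count ratio would be 16.1 TPM, below EREG.

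**Figure D4:**
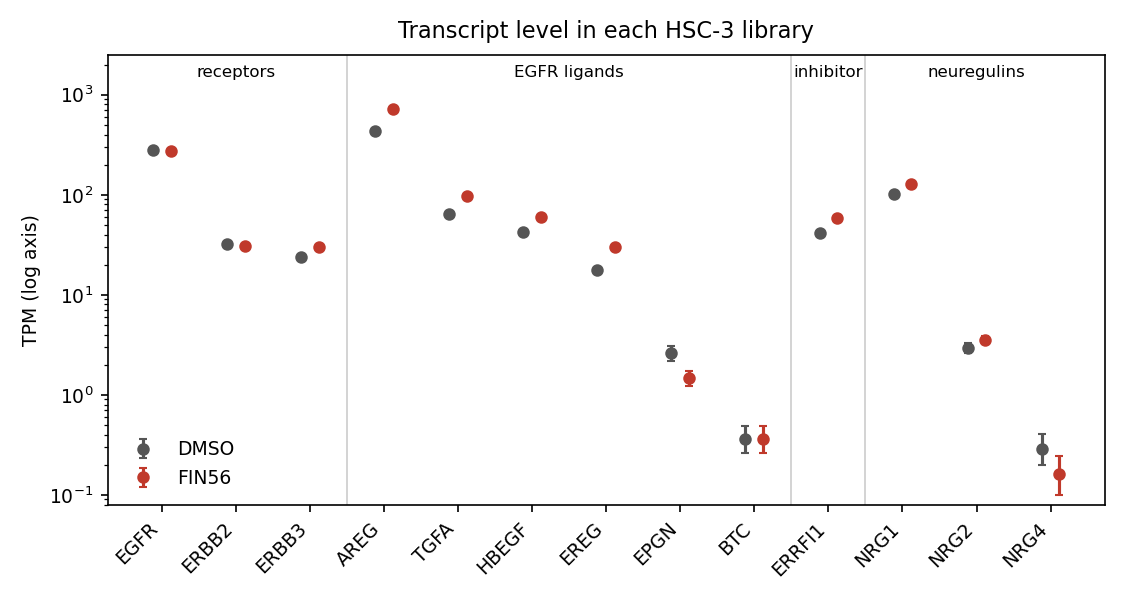
TPM on a log axis of the receptors, EGFR ligands, ERRFI1 and detected neuregulins in the DMSO (grey) and FIN56 (red) library, with exact 95% Poisson intervals of the counts behind each value, often smaller than the point. AREG, TGFA, HBEGF, EREG, ERRFI1 and NRG1 are higher with FIN56, and EGFR is near 282 and 273 TPM.

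In all, 3 of the 10 members (AREG, EREG and TGFA) reached 1.5 by FPKM, and 1 (EPGN) lay at 1/1.5 or less. Of all genes that were above 0 FPKM in each library, 14.7% were at 1.5 or more and 17.3% at 1/1.5 or less. Many such genes have few reads. Of the 17372 genes counted 10 times or more in each library, a limit that all 10 members passed, 7.62% were at 1.5 or more and 11.1% at 1/1.5 or less. The single lower member is thus near the background share. The counting interval lay above 1 for 5 members and below 1 for 3, against 31.3% and 31.0% of genes with at least 10 counts, so a departure from 1 beyond counting error is common in these deep libraries. The median log2 FPKM ratio of the members was 0.39, against 0.01 for the genes with at least 10 counts, and their median log2 count ratio was 0.20. By FPKM the middle members were ERBB3 (1.24) and ERRFI1 (1.38), so this median depends on the FPKM of ERBB3. By counts the middle members were EPGN (1.00) and ERRFI1 (1.32).

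AREG, EREG, EPGN and BTC lie in a single stretch of chromosome 4 beside a group of CXC chemokine genes, and the genes of this stretch differed in their fold changes. The start sites of EREG and AREG are 80.0 kb apart, and that of EPGN lies 136.7 kb and that of BTC 349.4 kb from that of AREG. MTHFD2L, the neighbor of EPGN, had 1994 and 2789 expected counts and an FPKM fold change of 1.297. All 5 CXCL genes of the stretch with at least 100 counts over the 2 libraries were below 1, from 0.644 for CXCL3 to 0.898 for CXCL6. The counting interval of CXCL6 included 1 (0.728 to 1.14). Of these 5 only CXCL3 was at 1/1.5 or less, against 11.1% of genes with at least 10 counts. The median FPKM ratio of such genes was 1.01, so a value below 1 is common. CXCL3 had 530 and 355 expected counts, CXCL1, CXCL2 and CXCL3 are close paralogs, and their counts were not all whole. PARM1, on the far side of BTC, had 333 and 397 counts and a fold change of 1.14. CXCL6, MTHFD2L and PARM1 were named for their place after their values were seen.

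The promoters of AREG, EREG and TGFA, the members at 1.5 or more, are shown because these genes were higher together. They are RefSeq sequences on GRCh38.p14, from 250 bases before to 50 after the start site, and 9 of the 10 members matched an entry. Capitals mark the TATA box motif (TATAAA) on either strand. They also mark the core of the cyclic AMP response element, or CRE (TGACG), and the NF-κB motif. All motifs were chosen with the fold changes known. TGANTCA, the AP-1 motif, was also searched and is not in these 3 windows. The GC box (GGGCGG), the ETS core (CCGGAA) and the CArG box (CCWWWWWWGG) were searched too and are not marked. The AREG window holds a GC box and an ETS core, the TGFA window holds 4 GC boxes, and the EREG window holds neither motif. No CArG box is in these windows. A position is that of the first base of a match, negative before the start site.
AREG, chr4:74444886-74445185, plus strand: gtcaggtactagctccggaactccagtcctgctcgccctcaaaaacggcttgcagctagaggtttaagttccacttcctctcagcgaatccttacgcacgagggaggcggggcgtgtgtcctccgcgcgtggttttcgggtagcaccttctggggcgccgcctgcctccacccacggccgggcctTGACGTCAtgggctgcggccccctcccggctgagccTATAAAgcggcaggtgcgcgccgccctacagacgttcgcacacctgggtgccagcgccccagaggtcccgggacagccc
EREG, chr4:74364895-74365194, plus strand: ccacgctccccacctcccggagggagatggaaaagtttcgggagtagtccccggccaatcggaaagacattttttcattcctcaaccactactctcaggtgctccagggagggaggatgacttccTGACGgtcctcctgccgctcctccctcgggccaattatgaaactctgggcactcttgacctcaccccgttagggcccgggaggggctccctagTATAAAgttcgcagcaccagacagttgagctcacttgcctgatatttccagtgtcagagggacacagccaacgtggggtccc
TGFA, chr2:70553777-70554076, minus strand: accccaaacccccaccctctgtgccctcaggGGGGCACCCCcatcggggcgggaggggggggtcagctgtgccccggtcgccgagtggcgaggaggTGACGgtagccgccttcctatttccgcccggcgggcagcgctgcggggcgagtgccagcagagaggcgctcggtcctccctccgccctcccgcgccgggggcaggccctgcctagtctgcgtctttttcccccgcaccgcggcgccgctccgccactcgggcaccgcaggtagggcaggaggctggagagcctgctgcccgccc

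AREG and EREG share a TATA box, at positions -29 and -32, and a CRE core. In AREG the core lies at position -65 and is part of a full element, TGACGTCA, which holds a core on each strand. In EREG the core is single and lies at position -125. The TGFA window, 1 of 2 listed for the gene, has no TATA box but holds a core at position -154 and an NF-κB match at position -219. The other TGFA window, which is not shown, has no TATA box, no CRE core and no NF-κB match. Of 35116 promoter windows of this length, 11.5% held TATAAA, 24.6% TGACG, 1.96% both, 1.85% the full TGACGTCA, 7.71% the AP-1 motif and 5.91% the NF-κB motif. EPGN, whose counts were nearly equal in the libraries, also held a TATA box and TGACG, and HBEGF held neither. A match describes the letters of a window and does not show that a factor binds there.

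The other genes of the pathway were read from lists. The 10 genes of ligand shedding, which hold the sheddases and the iRhom proteins that carry ADAM17 to the surface, had no member past either threshold, and their FPKM ratios spanned 0.791 to 1.24. Of all genes with at least 10 counts, 7.62% lay at 1.5 or more and 11.1% at 1/1.5 or less. ADAM17 had 6059 and 6938 expected counts and a fold change of 1.07, and ADAM10 9328 and 12324 counts and 1.24, both named here for their role after their values were seen. RHBDF1, the gene of the list closest to 1, had a fold change of 0.943.

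Of 20 genes for receptor turnover and inhibition, 1 was at 1/1.5 or less and none was at 1.5 or more, against 11.1% and 7.62% of genes. CBLC, a ubiquitin ligase of activated receptors, had 759 and 431 expected counts, a fold change of 0.572 and a count ratio of 0.545. EPN1, an endocytic adaptor, was closest to 1 at 1.02. Of 30 receptor adaptors and members of the kinase cascade, only PIK3R1, a regulatory subunit of PI3K, was past a threshold, also against 7.62% of genes higher and 11.1% lower. Its fold change of 1.55 came from 1854 and 2181 expected counts, a count ratio of 1.13, with an implied length ratio of 0.731, so that it too depends on the measure. SHC1, an adaptor that binds phosphorylated receptors, was closest to 1 by FPKM at 1.00, whereas its count ratio was 0.910 (0.889 to 0.931).

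Genes of the ERK output list were higher with FIN56 in most cases. The list holds 10 genes commonly used as a readout of ERK activity, and 8 reached 1.5 by FPKM, against 7.62% of genes with at least 10 counts, with none at 1/1.5 or less. Their median log2 FPKM ratio was 0.80. SPRY4, a feedback inhibitor of receptor signaling, had 1302 and 2878 expected counts and a fold change of 2.17. DUSP6, a phosphatase of ERK, had 3969 and 8331 counts and 2.02, and the related DUSP4 had 5324 and 10158 counts and 1.84. PHLDA1 had 19144 and 35524 counts and 1.79. The lowest of the list was the ETS factor ETV4, with 2450 and 2919 counts and 1.25. EPHA4, singled out after its values were seen, stood at 3.86 by FPKM from 26 and 43 counts, counts among the 8 and had a count ratio of 1.59 with an interval that included 1 (0.954 to 2.69), unlike the other 7. Its implied length ratio was 0.407. The list was chosen with earlier results of these data known, so its count describes the libraries and is not independent evidence of its direction. ERK activity was not measured, and a link between these genes and the ligands was not tested.

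**Figure D5:**
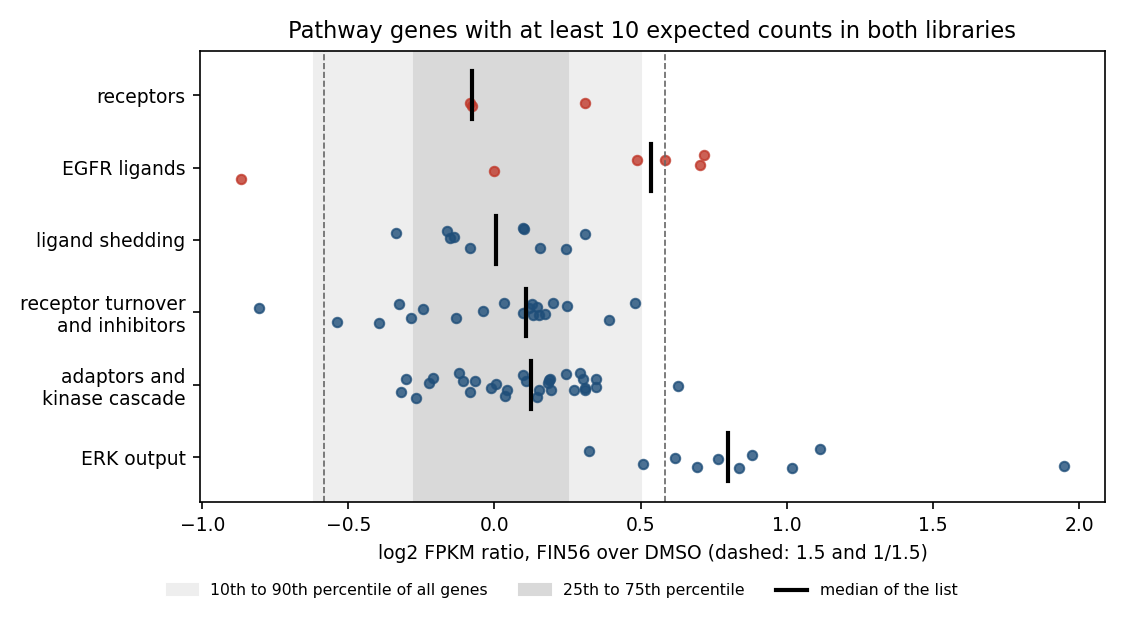
log2 FPKM ratio (FIN56 over DMSO) of the pathway genes by list, each point a gene counted 10 times or more in each library, the black bar the median of a list, and the grey bands the 10th to 90th and 25th to 75th percentiles of such genes. The ligands (median 0.54, n = 6) and the ERK output genes (median 0.80) lie to the right, while the medians of the shedding, turnover and adaptor lists lie between 0.0060 and 0.13.

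The label of the line was checked against markers. All 8 genes of the squamous epithelial list, which also holds the broader epithelial markers CDH1 and EPCAM, were expressed. They summed to 8291 TPM with DMSO and 7688 TPM with FIN56. KRT5 stood at 3109 and 2517 TPM, KRT14 at 2109 and 2066 and TP63 at 128 and 142. By FPKM ratio 4 of the 8 were above 1 and 4 below, from 0.781 to 1.44 with a median of 1.04. The immune markers PTPRC and CD3E were at 0 counts in both libraries. The immune marker list summed to 91.1 and 45.4 TPM, mostly from CD68, a lysosomal gene that epithelial cells also express, which stood at 85.65 TPM with DMSO and 37.57 TPM with FIN56. CD14 went the other way, at 5.41 and 7.87 TPM, with a count ratio of 1.39 (1.21 to 1.61). The part of these markers in the results above was not tested. Fibroblast markers summed to 7.64 TPM with DMSO and 4.47 TPM with FIN56, mostly COL1A1, and endothelial markers to 0.15 and 0.17 TPM.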

How the data were processed

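RNA from 2 HSC-3 cultures was sequenced from stranded mRNA libraries. The study's methods give the processing for tumor samples, and the labels name the same tools for these libraries: FastQC 0.11.7, STAR 2.6.1a on GRCh38, RSEM 1.3.1 and DESeq2 1.26.0. The deposited expected counts are RSEM estimates without normalization. The authors scaled FPKM and TPM for effective length and library size and gave them to 2 decimals. The deposited rlog values use a log2 scale that draws differences between libraries in. The names of all 8 columns gave their library.

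FPKM was turned into whole hundredths before its ratio was set against a threshold. Expected counts were rounded to whole numbers for intervals, edgeR TMM and DESeq2 size factors, and counts within 0.005 of a whole number were taken as whole. The implied length is the count divided by the FPKM and the library total. Positions and transcript lengths came from GENCODE release 44 (GRCh38), where 99.68% of identifiers were found. In each pathway list, the genes past a threshold with at least 100 counts in both libraries together, at most the 4 farthest from 1, and the gene closest to 1 were named. The members and lists were chosen with earlier results of these data known. 1 marker gene is not reported here. The counting interval, and the recovery of count changes well past the threshold, were tested on simulated counts. FPKM ratios, implied lengths, TPM sums and motif searches were not simulated. Python 3.11.15, R 4.3.3, edgeR 4.0.16 and DESeq2 1.42.0 were used.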

Additional observations from a re-analysis of the deposited data

How the results depend on the processing

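No paired analysis was possible because there is a single library per condition and so no replicate to leave out. The direction of AREG, EREG, TGFA, HBEGF, ERRFI1, EGFR and ERBB2 was the same under all 7 alternatives that give single-gene values (TPM, rlog, TMM, DESeq2 size factors, library totals and 2 pseudocounts). TMM moved the median of all genes by -0.034 on the log2 scale, more than any other scaling. Library totals alone, also on counts without a length, moved it by -0.027.

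The count of members at 1.5 or more was 3 and became 0 with rlog values, which draw the libraries together, and 0 at a threshold of 2. A pseudocount of 0.1 FPKM put TGFA at 1.4991, below the threshold. The count at 1/1.5 or less was 1 (EPGN) and became 0 with rlog values, TMM, DESeq2 size factors, library totals, a floor of 1 FPKM, a pseudocount of 1 FPKM and a threshold of 2. ERBB3 turned from 1.24 to 0.862 with rlog values, 0.677 with TMM, 0.696 with DESeq2 size factors and 0.678 with library totals, all of which rest on counts without a length. EPGN turned from 0.549 to 1.00 with rlog values, TMM and library totals and 1.03 with DESeq2 size factors. EGF, on 4 and 3 counts, turned from 2.33 to 0.998, 0.719, 0.720 and 0.739 with rlog, TMM, library totals and DESeq2 size factors.

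The median log2 ratio of the members was 0.39 and moved to 0.096 with rlog values, 0.20 with TMM and with library totals, 0.24 with DESeq2 size factors and 0.48 with a floor of 1 FPKM. The ligand sum had a ratio of 1.63 by TPM, 1.59 by FPKM, 1.58 by counts without length and 1.4993 without AREG. The receptor sum had 0.989 by TPM, 0.968 by FPKM, 0.939 by counts, and reversed to 1.09 without EGFR, which rests on the TPM of ERBB3. By counts the sum without EGFR had 0.790, an alternative chosen after seeing the data. Of the ERK output genes 8 were at 1.5 or more, 0 with rlog values and 3 at a threshold of 2. The rest of the family (ERBB4, EGF and the neuregulins) turned from a median of 0.27 to -0.065 with TMM, -0.026 with DESeq2 size factors and -0.062 with library totals, and the shedding list from 0.0060 to -0.038 with rlog values, -0.14 with TMM and library totals and -0.10 with DESeq2 size factors. With rlog values, TMM, library totals and DESeq2 size factors, EPGN took the place of ERBB3 beside ERRFI1 at the middle of the members. The cause of these shifts was not tested further.

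Over all genes, 3583 were at 1.5 or more and 4240 at 1/1.5 or less. These counts became 7 and 16 with rlog values, 489 and 855 with the floor of 1 FPKM in each library, 1323 and 1936 with at least 10 counts, 476 and 785 with a pseudocount of 1 FPKM, and 2088 and 2384 at a threshold of 2. Depth limits EPGN, BTC, EGF and NRG4, whose counting intervals included 1.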

Other observations

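EGFR-AS1, a long non-coding RNA on the strand opposite to EGFR (chromosome 7, 55179750 to 55188977), was detected at a low level. It had 319.31 expected counts with DMSO and 383.23 with FIN56, FPKM values of 1.68 and 1.94 and a count ratio of 1.15, with an interval of 0.992 to 1.34 that included 1. Neither count was whole. The libraries were made with a stranded kit, and whether the counting used the strand is not given in the sources used here, so reads of EGFR and of EGFR-AS1 may not be fully separated.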
